A study of Mus musculus with 8 samples.

Results

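The early response to locamidazole (LAMZ) was examined in the 4 libraries harvested on day 7, of 8 libraries in the series, by comparing the 2 LAMZ libraries with the 2 control libraries across gene families. Mouse osteoblast progenitors were cultured in osteogenic medium that held serum, ascorbic acid, β-glycerophosphate and the glucocorticoid dexamethasone, and received the vehicle DMSO (control) or LAMZ at 1 μmol·L−1, an aminoindazole derivative of which linifanib, an inhibitor of VEGF and PDGF receptor kinases, is an analog. The same groups were also harvested on day 14, with 2 libraries each, and the 4 day 14 libraries entered the fit and 1 comparison below. All groups, controls included, were exposed to dexamethasone. On the cells the sources differ: MC3T3-E1, an established osteoblastic line, stands in the labels of the samples, while the series description and the methods give calvarial cells, a primary preparation that can hold other cell types of the skull. Nothing says whether replicates 1 and 2 were separate cultures, so the p-values measure the spread between these libraries, which may be technical.

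The labelled cell type was checked against defining markers in the 4 day 7 libraries. Runx2, the master regulator of the osteoblast lineage, had an RPKM of 7.89 and 9.83 in the control libraries and 17.6 and 18.7 in the LAMZ libraries, and Alpl, the alkaline phosphatase of osteoblasts, was at 37.3 and 63.4 in the controls and 200.1 and 188 with LAMZ. The control libraries also held macrophage RNA, with Lyz2, the myeloid lysozyme, at 312 and 409. Xist, the RNA of the inactive X chromosome, was at 7.61 and 8.57 in the control libraries and 6.99 and 6.98 in the LAMZ libraries, and Ddx3y, a Y-linked helicase, at 2.71 and 2.34 in the controls and 3.25 and 3.4 with LAMZ. Transcripts of both sexes were thus present in every day 7 library. Of 12 endothelial markers, 10 were under an RPKM of 1 in each of the 4 libraries, among them Pecam1 at or under 0.222. The other 2, which stromal cells can also hold, were tested: Eng was at 18.5 and 20.0 in the controls and 13.8 and 15.9 with LAMZ and did not pass the test (adjusted p = 0.172). Tek was at 1.86 and 1.1 in the controls and 0.149 and 0.0815 with LAMZ and was lower (−1.14 ± 0.22, adjusted p = 0.0153), a call lost without control replicate 1 or either LAMZ library. The T cell marker Cd3e was at or under 0.065. Summed over the endothelial list, the RPKM was 23 and 23.5 in the controls and 15.7 and 18.8 with LAMZ.

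Depth was low. The day 7 libraries held 3463860 to 5209152 mapped reads, recovered from the steps of the RPKM values, and 94.5% to 96.7% of the values checked came out as whole reads within 0.05 reads. The RNA of the signal recognition particle, Rn7s1, took 23.3% to 33.7% of the summed RPKM of a day 7 library. Replicates correlated across genes at Pearson's r of 0.961 for the day 7 controls and 0.978 for day 7 LAMZ, where the points are genes and not independent replicates. The RPKM of a gene is its read count divided by its length and by the mapped reads of the library, so levels are given per length.

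Some background helps to read the families. Cells sense oxygen through prolyl hydroxylases, which mark the hypoxia-inducible factors for destruction, and when these factors persist they switch on glucose uptake, glycolysis, pH control and the hydroxylases themselves. Osteoblasts are known to rely strongly on glycolysis as they mature. Bone cultures from calvaria can carry resident macrophages, whose survival depends on the CSF1 receptor and its ligands CSF1 and IL34, and type I interferon keeps a set of antiviral genes on in macrophages and stromal cells. FGF, Wnt, BMP and hedgehog ligands steer progenitors toward osteoblast or cartilage fates, and each pathway induces its own inhibitors as feedback.

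Of 12514 tested genes, 1607 differed between LAMZ and control at day 7, which was 12.8% (limma, adjusted p under 0.05). LAMZ-treated cells had 544 genes (4.35%) at a higher level and 1063 (8.49%) at a lower level. List counts below are to be read against these shares, and percentages in brackets after them are of tested members. The lists were chosen with earlier results of these data known, so their shares are descriptive. The median log2 fold change over all tested genes was −0.08, and list medians below are given relative to it. Under median centring 857 genes were higher and 745 lower, under quantile normalization 679 and 808, and under rescaling to the same RPKM sum 312 and 3280, so that the balance of directions rests on the scaling between libraries. The count of 1607 came to 527 without LAMZ replicate 1, 658 without LAMZ replicate 2, 960 without control replicate 1 and 1159 without control replicate 2. Fold changes are on the log2(RPKM + 1) scale, which understates the change of low genes, and ± gives the SE of the fit with n = 2 libraries per group.

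The largest rises at day 7 included Dmp1, Spp1 and Acan, followed by genes with less familiar roles. Slc13a5, the citrate importer of the plasma membrane (chromosome 11, 72241989 to 72267222 on GRCm38, GENCODE M21), had an RPKM of 11.7 and 17.2 in the control libraries and 86.1 and 77.7 in the LAMZ libraries. Its LAMZ libraries lay far above its control libraries, with a limma log2 fold change of 2.45 ± 0.17 (adjusted p = 0.000157). Susd5, a sushi-domain gene counted in the cartilage list below (chromosome 9, 114057140 to 114098728), went from 5.07 and 6.36 to 40.8 and 32.9, a change of 2.49 ± 0.16 (adjusted p = 0.000122). Matn1, a cartilage matrilin, was read 1 and 2 times in the control libraries and 57 and 65 times in the LAMZ libraries. That came to an RPKM of 0.133 and 0.289 against 6.68 and 6.24 (log2 fold change 2.63 ± 0.23, adjusted p = 0.000534). The other members of the first 10 were Egln3 and Dkk1, described below, and a pair of genes with no read in either control library. Gm24623, a small nuclear RNA gene, had 8 and 4 reads in the LAMZ libraries, and the histone gene Hist1h4m 5 and 13 reads. Histone and small nuclear RNA genes have near-identical copies in the genome, and at so few reads these rises are imprecise.

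The 10 largest falls were all genes known from macrophages. Beside Lyz2 and the C1q genes, they were Tyrobp, Ctss, Marco, Fcer1g, Pf4 and Stab1. Marco, a scavenger receptor, had an RPKM of 13.1 and 18.4 in the control libraries and 0 in both LAMZ libraries, at least 47.4-fold lower against a floor of 3 reads in each library. Stab1, another scavenger receptor (chromosome 14, 31139013 to 31168641), went from 12.8 and 22 to 0.342 and 0.448, a log2 fold change of −3.68 ± 0.22 (adjusted p = 8.97e-05). Pf4, a chemokine of platelets and macrophages, was at 11 and 12.8 in the controls and at 0 in both LAMZ libraries, at least 13.4-fold lower.

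**Figure D1:**
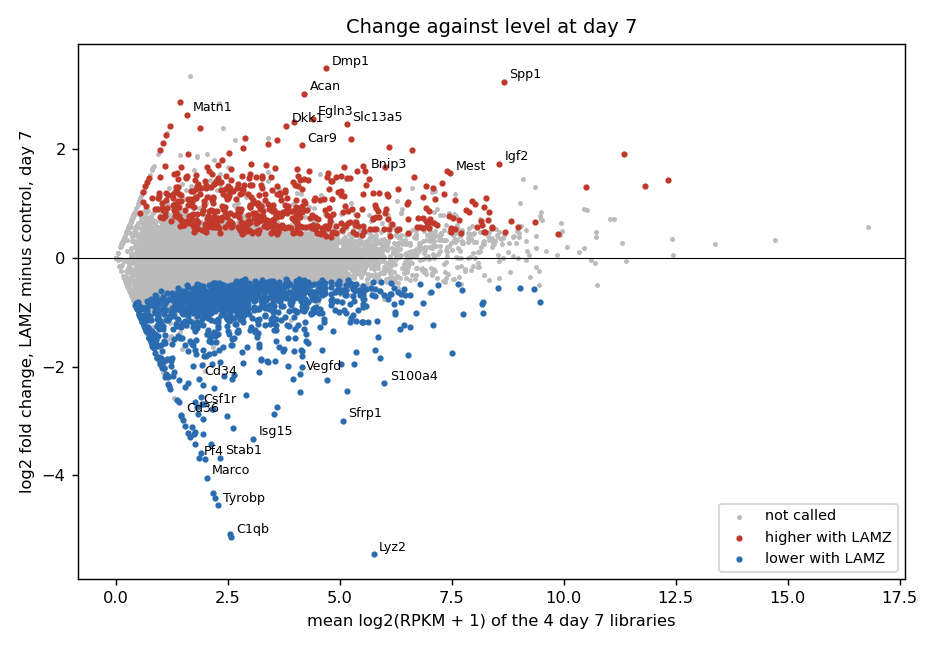
Log2 fold change of LAMZ against control at day 7 (y axis) against the mean log2(RPKM + 1) of the 4 day 7 libraries (x axis) for the 12514 tested genes. Red points are the 544 genes called higher, blue points the 1063 called lower, and grey points the rest. The lower arm of blue points at low level is led by macrophage genes.

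Genes induced by low oxygen rose together at day 7. Of 18 members, all tested, 14 were called higher and 1 lower, or 77.8% higher against 4.35% of all genes, with a list median of 1.15 above the median of all genes. Without LAMZ replicate 1, 9 were called higher. Egln3, an oxygen-sensing prolyl hydroxylase (chromosome 12, 54178981 to 54203860), had an RPKM of 6.08 and 9.65 in the control libraries and 54 and 45.9 in the LAMZ libraries. Its log2 fold change was 2.55 ± 0.21 (adjusted p = 0.000375). Egln1, its more broadly expressed relative, went from 19.1 and 21.2 to 33.9 and 34.6 (0.74 ± 0.11, adjusted p = 0.00473). Car9, a carbonic anhydrase of the cell surface that controls pH, was at 5.18 and 11.4 in the controls and at 32.4 and 39.2 with LAMZ, a change of 2.06 ± 0.28 (adjusted p = 0.00338). On the log scale its 2 control libraries lay farther apart than its LAMZ libraries, and its call was lost in a fit of the 4 day 7 libraries alone. Bnip3, which targets mitochondria for removal (chromosome 7, 138890836 to 138909519), was at 24.8 and 28.2 and rose to 84.9 and 77.7. The log2 fold change was 1.58 ± 0.12 (adjusted p = 0.000248).

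The other called members spanned metabolism and matrix. Ndrg1, a stress-responsive gene of differentiation, went from 9.29 and 10.9 to 31.7 and 27 (1.45 ± 0.13, adjusted p = 0.000565). P4ha1 and P4ha2, the catalytic subunits of collagen prolyl hydroxylase, changed by 1.12 ± 0.16 and 1.17 ± 0.12. Higd1a, Ankrd37, Ero1l, Loxl2, Mxi1, Bnip3l and Car12 completed the higher genes. Vegfa, the angiogenic ligand, was at 17.9 and 26.4 in the controls and 36.8 and 32.7 with LAMZ but did not pass the test (0.65 ± 0.21, adjusted p = 0.0827), nor did Kdm3a and Lox. Without control replicate 2 Vegfa was past the threshold. Adm, which encodes the vasodilator adrenomedullin and is a hypoxia-induced gene elsewhere, went the other way. It fell from 24.7 and 20.3 to 9.99 and 11.5 (−1.0 ± 0.17, adjusted p = 0.00805). Adm lost its call without LAMZ replicate 1, as did Car12 without LAMZ replicate 1 or control replicate 1.

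Glycolysis genes moved in the same direction from transport to lactate export. Of 23 members, all tested, 16 were higher (69.6%) and 1 was lower (4.35%), with a median 0.82 above that of all genes. The count of higher members was 8 without LAMZ replicate 1. Slc2a1, the basal glucose transporter, had an RPKM of 8.62 and 10.6 in the control libraries and 28.2 and 22.6 in the LAMZ libraries (1.31 ± 0.15, adjusted p = 0.0017). Hk2, the hexokinase that traps glucose in the cell, went from 3.07 and 4.45 to 14.3 and 11.1 (1.53 ± 0.17, adjusted p = 0.00135). Both genes had their LAMZ libraries well apart from the controls. Pgk1, the first ATP-yielding kinase of the pathway, was at 171 and 182 in the controls and 319.5 and 313 with LAMZ (0.84 ± 0.11, adjusted p = 0.00306). Ldha, which turns pyruvate into lactate, went from 216 and 235 to 348 and 376 (0.68 ± 0.14, adjusted p = 0.0183). Slc16a3, the lactate exporter, was at 12.2 and 17.3 and rose to 41.4 and 48.3, the largest change of the list (1.56 ± 0.17, adjusted p = 0.00138). Ldhb, the subunit that favours lactate use, was the exception and fell from 14.5 and 13.6 to 7.62 and 8.31 (−0.75 ± 0.16, adjusted p = 0.0216). The calls of Ldha and Ldhb rested on single libraries: that of Ldha was lost without control replicate 1 or either LAMZ library, and that of Ldhb without any 1 of the 4 day 7 libraries. Gapdh, which the study used as its reference gene, was at 45.1 and 68.2 in the controls and 71.9 and 102 with LAMZ and did not pass the test (0.62 ± 0.29, adjusted p = 0.214).

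**Figure D2:**
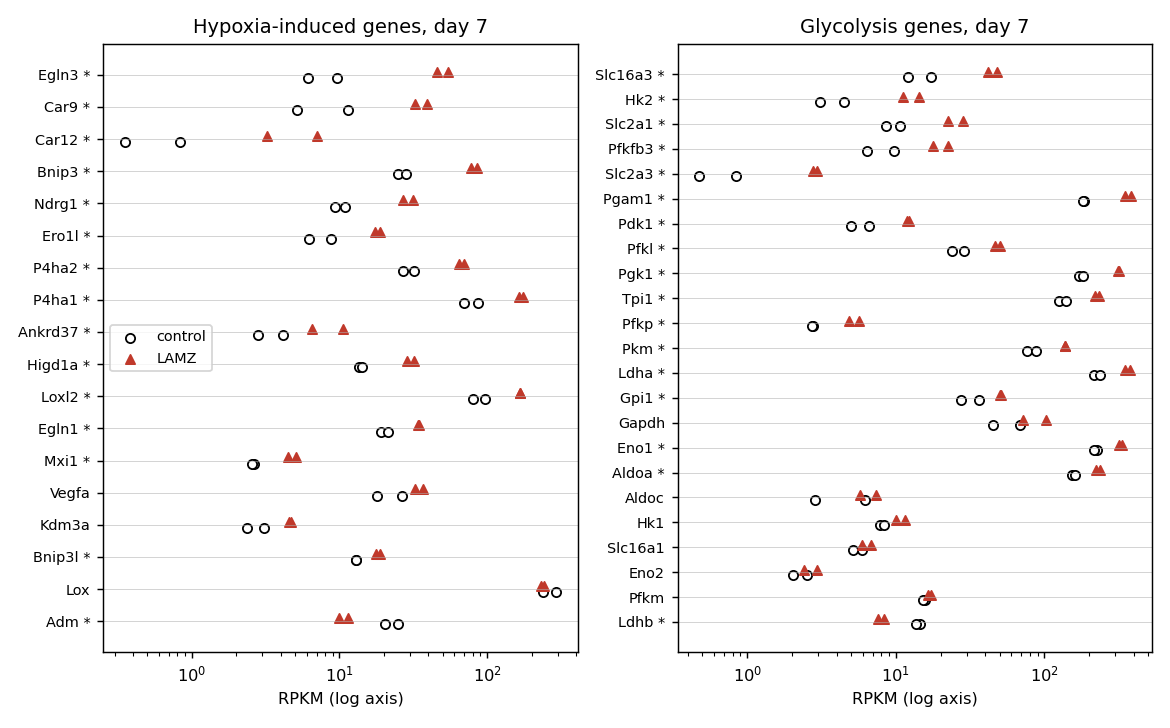
RPKM on a log axis of the 18 hypoxia-induced genes and the 23 glycolysis genes in each day 7 library, with open circles for the 2 control and red triangles for the 2 LAMZ libraries, ordered by log2 fold change. A star marks genes called at day 7. The triangles lie to the right of the circles in the upper rows, and Adm and Ldhb at the bottom show the opposite.

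The promoters of these genes were read from RefSeq (GRCm38.p6), as 250 bases before to 50 after the start. The core letters of the hypoxia response element, ACGTG or GCGTG on either strand, were searched for. Of the 13 hypoxia-induced genes with a promoter in the table, 12 (92.3%) held a match, as did 19 of 22 (86.4%) glycolysis genes, 6166 of 9039 (68.2%) tested genes and 12628 of 27025 (46.7%) of all genes. For ACGTG alone the shares were 76.9%, 63.6%, 29.7% and 21.8%. Among members called at day 7, 90.9% of hypoxia-induced and 87.5% of glycolysis genes held a match to either core. For ACGTG alone these were 81.8% and 56.2%. The lists hold genes known for these pathways, so the shares describe the lists and not the change with LAMZ. A match is a description of letters and not a bound site. The promoters of a hydroxylase, a mitochondrial gene and the lactate exporter are shown, 5′ to 3′ on the strand of the gene, with each match in capitals.
Egln3 (chr12:54203825-54204124, minus strand): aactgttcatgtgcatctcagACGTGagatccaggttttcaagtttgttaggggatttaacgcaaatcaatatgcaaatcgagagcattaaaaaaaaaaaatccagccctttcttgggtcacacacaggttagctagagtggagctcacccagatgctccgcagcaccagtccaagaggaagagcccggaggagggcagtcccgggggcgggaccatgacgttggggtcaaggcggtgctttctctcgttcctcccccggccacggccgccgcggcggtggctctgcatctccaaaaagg
Bnip3 (chr7:138909457-138909756, minus strand): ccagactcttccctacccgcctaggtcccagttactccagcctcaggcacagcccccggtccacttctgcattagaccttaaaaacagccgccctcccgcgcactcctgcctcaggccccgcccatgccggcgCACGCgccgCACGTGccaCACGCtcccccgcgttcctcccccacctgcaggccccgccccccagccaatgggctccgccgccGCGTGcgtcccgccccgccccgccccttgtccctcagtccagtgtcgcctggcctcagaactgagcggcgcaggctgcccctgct
Slc16a3 (chr11:120948817-120949116, plus strand): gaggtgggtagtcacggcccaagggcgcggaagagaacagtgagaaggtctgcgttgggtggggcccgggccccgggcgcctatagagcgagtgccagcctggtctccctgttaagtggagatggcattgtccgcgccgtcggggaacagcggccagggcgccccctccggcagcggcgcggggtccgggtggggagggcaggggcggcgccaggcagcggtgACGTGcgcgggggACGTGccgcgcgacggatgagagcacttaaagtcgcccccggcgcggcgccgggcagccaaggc
The Egln3 window held 1 match, that of Slc16a3 2 and that of Bnip3 5, of which an adjoining pair overlapped as a palindrome.

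Macrophage genes were almost gone from the LAMZ libraries. Of 25 markers with a value, 24 were tested and 20 were lower, or 83.3% against 8.49% of all genes, with none higher and a median −2.79 relative to all genes. The summed RPKM of the list was 504 and 666 in the control libraries and 10.2 and 8.38 in the LAMZ libraries. In bulk RNA, fewer cells of a type and less RNA per cell cannot be told apart. Csf1r, the receptor on which macrophages depend, had an RPKM of 7.33 and 9.04 in the controls and 0.336 and 0.393 with LAMZ (−2.75 ± 0.13, adjusted p = 5.13e-05). Adgre1, the F4/80 antigen, went from 9.24 and 11 to 0.0723 and 0 (−3.42 ± 0.19, adjusted p = 7.96e-05). Ctss, a lysosomal protease of antigen-presenting cells, and Tyrobp, a signalling adaptor of myeloid receptors, were at 0 in both LAMZ libraries. Ctss was at 14.6 and 24.9 in the controls, so at least 41.9-fold lower with LAMZ, and Tyrobp at 17.5 and 28.6, so at least 24.0-fold lower. The tested osteoclast genes did not follow this pattern, but 7 of 15 on that list lay under the filter. Of the 8 tested, 1 was higher (12.5%) and 1 lower (12.5%). The higher gene was Itgb3, which is also on the integrin list. The lower gene was Clcn7, whose call was lost without control replicate 2 or either LAMZ library. Whether osteoclasts were present was not tested.

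Genes of innate immunity that both macrophages and stromal cells use fell as well. Among complement genes, 12 of 15 tested were lower (80.0%) and none higher, with a median of −0.91 relative to all genes. C3, the central component of the cascade, was at 7.89 and 9.38 in the controls and 0.41 and 0.224 with LAMZ (−2.87 ± 0.14, adjusted p = 5.49e-05). Serping1, the inhibitor of the first component, went from 31.4 and 29.9 to 7.77 and 9.82 (−1.7 ± 0.13, adjusted p = 0.000266). Cfb, the protease of the alternative route, fell from 6.2 and 5.21 to 0.166 and 0.408 (−2.38 ± 0.16, adjusted p = 0.000157). The macrophage markers of the same libraries moved with these genes, and their part in the change was not tested. Among chemokines and their receptors, 8 of 18 tested were lower (44.4%). Ccl2, which draws monocytes, was at 7.22 and 11.9 in the controls and 0.206 and 0 with LAMZ (−3.23 ± 0.23, adjusted p = 0.000172). Cxcl12, the stromal chemokine that retains blood progenitors, went from 23.9 and 19.5 to 5.22 and 4.88 (−1.9 ± 0.14, adjusted p = 0.000193).

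Lysosomal and antigen presentation genes were lower in part. Of 49 tested lysosome genes, 9 were lower and none higher, led by Ctss, Lipa, Ctsc and Ctsb, or 18.4% against 8.49% of all genes. Ctss is also a macrophage marker, and the summed RPKM of the macrophage markers went from 504 and 666 to 10.2 and 8.38 in the same libraries. Their part in the fall of lysosomal and antigen presentation genes was not tested. Lipa, the acid lipase, was at 24.7 and 26.3 in the controls and 8.92 and 8.21 with LAMZ (−1.47 ± 0.13, adjusted p = 0.000472). Of 19 tested antigen presentation genes, 10 were lower, a count that came to 5 without control replicate 2, 3 without LAMZ replicate 1 and 4 without LAMZ replicate 2. Psmb8, a subunit of the immunoproteasome, fell from 6.49 and 6.86 to 1.71 and 1.96 (−1.44 ± 0.12, adjusted p = 0.000353) and kept its call in all these fits. The lysosome count came to 4 when LAMZ replicate 1 or LAMZ replicate 2 was left out.

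Interferon-stimulated genes were lower with LAMZ, but the control libraries differed from each other. Of 40 members with a value, 33 were tested, and 21 were lower (63.6%) and none higher. All 33 had a negative change, with a median of −1.29 relative to all genes. Isg15, a ubiquitin-like modifier, had an RPKM of 10.5 and 60.7 in the control libraries and 2.48 and 1.02 in the LAMZ libraries (−3.33 ± 0.73, adjusted p = 0.0235). Ifit3, an antiviral protein of the same programme, was at 3.34 and 15.9 in the controls and 0.403 and 0.33 with LAMZ (−2.65 ± 0.54, adjusted p = 0.0176). In both, control replicate 2 stood far above control replicate 1, and the LAMZ libraries lay below both. Summed over the list, the RPKM was 171 in control replicate 1 and 361 in control replicate 2, against 66.7 and 65.3 with LAMZ. The macrophage markers, which summed to 504 and 666 in the same control libraries, fell as well, and their part in the interferon change was not tested. The count of lower members was 31 without control replicate 1, 7 without control replicate 2, and 3 and 4 without LAMZ replicate 1 or 2. Isg15 and Ifit3 lost their calls without either of the LAMZ libraries, and Isg15 also without control replicate 2. Members whose control libraries lay close together were Ifi27, at 47 and 51 against 23.2 and 24.5 with LAMZ (−1.01 ± 0.13, adjusted p = 0.00243), and Ifi27l2a, at 15.5 and 18.7 against 2.03 and 0.415 (−3.12 ± 0.38, adjusted p = 0.00204).

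The interferon-stimulated response element, searched as GAAANNGAAA on either strand, was found in the promoter window of 16 of 24 (66.7%) tested interferon-stimulated genes, 331 of 9039 (3.66%) tested genes and 3.99% of all genes. Of the 15 called members with a window, 10 (66.7%) held it, the same share as in the tested list. The share thus describes the list and not the change with LAMZ. The windows of Isg15 and Ifit3 are shown for the letters that the members share, with matches in capitals.
Isg15 (chr4:156200769-156201068, minus strand): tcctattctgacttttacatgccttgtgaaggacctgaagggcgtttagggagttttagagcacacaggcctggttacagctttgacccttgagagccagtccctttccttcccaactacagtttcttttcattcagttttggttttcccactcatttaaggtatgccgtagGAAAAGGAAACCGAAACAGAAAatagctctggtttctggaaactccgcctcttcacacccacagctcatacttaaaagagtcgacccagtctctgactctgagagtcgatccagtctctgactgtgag
Ifit3 (chr19:34583279-34583578, plus strand): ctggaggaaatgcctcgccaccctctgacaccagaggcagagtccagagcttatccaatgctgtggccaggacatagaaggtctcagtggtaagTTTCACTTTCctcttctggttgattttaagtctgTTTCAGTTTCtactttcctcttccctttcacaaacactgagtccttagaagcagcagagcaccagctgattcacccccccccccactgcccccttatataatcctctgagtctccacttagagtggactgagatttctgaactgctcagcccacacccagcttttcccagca
The Isg15 window held 3 overlapping matches in 1 run and the Ifit3 window 2 on the other strand.

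**Figure D3:**
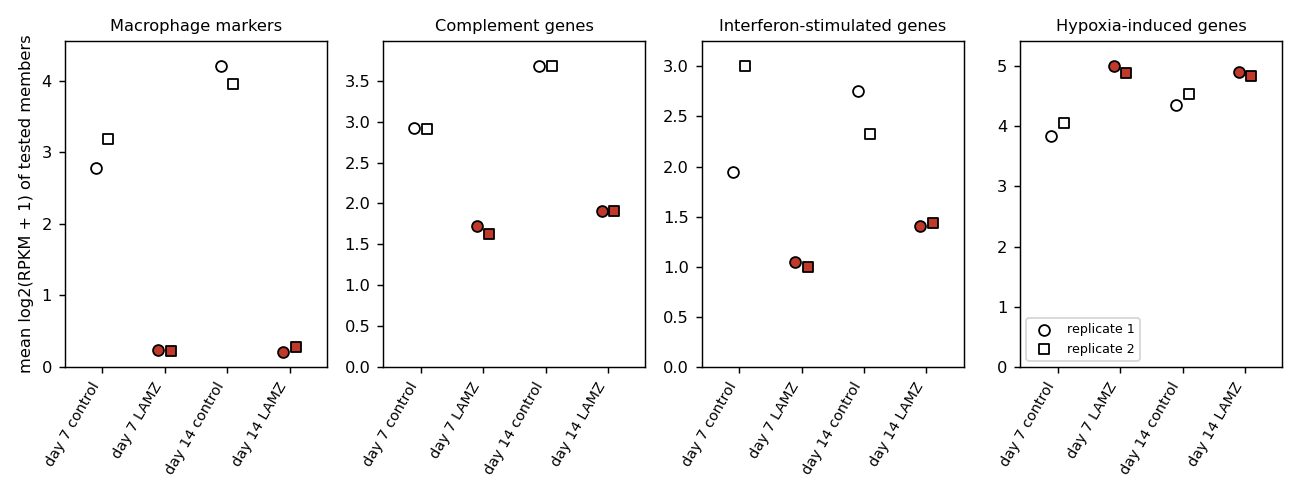
Mean log2(RPKM + 1) of the tested members of 4 gene lists in each of the 8 libraries, with circles for replicate 1, squares for replicate 2, open symbols for control and red symbols for LAMZ. Macrophage markers and complement genes separate the groups, interferon-stimulated genes differ between the 2 day 7 control libraries, and hypoxia-induced genes are higher in both day 7 LAMZ libraries.

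Ligands and receptors of the VEGF, PDGF, angiopoietin and CSF1 families changed in both directions. Of 23 tested, 9 were lower (39.1%) and 4 higher (17.4%). Csf1r, which is also counted among the macrophage markers, had the largest fall of this list. Macrophage markers fell in the same libraries, and their part in the falls of this list was not tested. Both ligands of the CSF1 receptor were lower: Csf1 went from 71.7 and 63.6 to 27.7 and 30.4 (−1.19 ± 0.13, adjusted p = 0.00122), and Il34 from 14.5 and 15 to 3.47 and 5.19 (−1.58 ± 0.17, adjusted p = 0.00123). Vegfd, a ligand of lymphatic vessel growth, fell from 37.6 and 33 to 6.33 and 8.29 (−2.13 ± 0.14, adjusted p = 0.000145). Pdgfa, the ligand of PDGF receptor alpha, rose from 9.35 and 8.61 to 26 and 28.2 (1.49 ± 0.11, adjusted p = 0.000245). Each of these 4 ligands kept its call with any 1 library left out.

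In the FGF pathway, 2 receptor genes rose while feedback inhibitors fell. The count of lower FGF members rests on the scaling, at 5 under quantile normalization and 11 under rescaling to the same sum. Higher members numbered 3 and 2 in these fits. Without scaling, of 28 tested members 7 were lower and 2 higher, the latter 7.14% against 4.35% of all genes. The share of lower members lay above the 8.49% of all genes, and the list median was −0.12 relative to all genes. The higher genes were the receptors Fgfr2, at 40.8 and 45.7 in the controls and 102 and 96.1 with LAMZ (1.18 ± 0.11, adjusted p = 0.000658), and Fgfr3 (1.01 ± 0.18). Spry2, an inhibitor that ERK signalling itself induces, went from 7.5 and 7.75 to 2.81 and 2.39 (−1.26 ± 0.16, adjusted p = 0.00262). Dusp6, the ERK phosphatase, was at 6.86 and 5.62 in the controls and 0.823 and 2.45 with LAMZ (−1.52 ± 0.29, adjusted p = 0.0138), with its LAMZ libraries far apart. Other lower members were the ligand Fgf7, the adhesion protein Flrt2, and the ERK-responsive Dusp4, Spry4 and Etv5. Without LAMZ replicate 1 or 2 the count of lower members was 3, and both Dusp6 and Fgfr3 lost their call without LAMZ replicate 1 or control replicate 1. Fgfr1, the main receptor by level, was at 35.9 and 36.7 in the controls and 35.5 and 37 with LAMZ (adjusted p = 0.998).

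Secreted inhibitors of the Wnt pathway moved in opposite directions. The balance of the whole Wnt list rests on the scaling. Under rescaling to the same sum 2 members were higher and 11 lower, and the list median changed sign. Without scaling, the shares of higher and lower members lay above the 4.35% and 8.49% of all genes. Of 41 tested, 9 were higher and 6 lower, and with any 1 of the 4 day 7 libraries left out 3 to 6 were higher and 2 or 3 lower. Dkk1, which blocks the LRP co-receptors (chromosome 19, 30545863 to 30549665), was at 3.82 and 6.54 in the controls and 39.2 and 25.1 with LAMZ (2.42 ± 0.26, adjusted p = 0.00125). Frzb, a secreted decoy, rose from 2.05 and 3.12 to 15.1 and 11.8 (2.02 ± 0.23, adjusted p = 0.00139). A related decoy, Sfrp1, did the reverse and fell from 111 and 78.7 to 9.92 and 11.9 (−3.0 ± 0.19, adjusted p = 0.000122). The receptor Fzd4 fell from 5.21 and 5.07 to 0.907 and 0.885 (−1.69 ± 0.13, adjusted p = 0.000311). All 4 genes kept their call with any 1 library left out.

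BMP, TGF-beta and hedgehog members also moved both ways. The balance of BMP and TGF-beta genes rests on the scaling, with 7 higher and 19 lower under rescaling to the same sum. Of 54 tested BMP and TGF-beta genes, 11 were higher (20.4%) and 11 lower (20.4%). Without LAMZ replicate 1 these were 6 and 5, without LAMZ replicate 2 they were 5 and 5, and without control replicate 1 they were 7 and 9. Bambi, a decoy receptor, rose from 3.0 and 3.95 to 14.2 and 13 (1.71 ± 0.15, adjusted p = 0.000434). Id1, a direct target of BMP signalling, fell from 24.2 and 18.4 to 7.48 and 4.96 (−1.64 ± 0.24, adjusted p = 0.00469). The receptor Acvr2a fell from 6.9 and 6.19 to 2.39 and 1.92 (−1.26 ± 0.13, adjusted p = 0.000958). In the hedgehog pathway 2 of 15 tested genes were higher (13.3%), the ligand Ihh and its receptor and target Ptch1. Ihh, the hedgehog of growth cartilage, went from 1.74 and 1.8 to 8.0 and 9.32 (1.8 ± 0.22, adjusted p = 0.00224). Ptch1 went from 3.17 and 4.32 to 12.2 and 11.7 (1.46 ± 0.18, adjusted p = 0.00213). The lower members were Gas1 and Disp1, neither of which was called when a LAMZ library was left out. Of 13 tested Notch genes 4 were lower (30.8%) and none higher. Among the lower genes was the ligand Jag1, at 16.3 and 16.7 against 6.76 and 7.25 (−1.13 ± 0.12, adjusted p = 0.00133). Without LAMZ replicate 1, 2 Notch genes were lower.

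IGF ligands and binding proteins changed strongly in single members, while the median of the list changed sign under rescaling to the same sum. Igf2, the fetal growth factor, was abundant, with an RPKM of 215 and 199 in the control libraries and 601 and 780.4 in the LAMZ libraries (1.72 ± 0.15, adjusted p = 0.000403). Igfbp5, the binding protein of bone, rose from 87.2 and 106 to 269.8 and 318 (1.6 ± 0.14, adjusted p = 0.000535), and Igfbp6, which prefers IGF2, fell from 23.6 and 13.5 to 3.16 and 3.62 (−2.11 ± 0.23, adjusted p = 0.0012). Over the pathway, 6 of 17 tested members were higher (35.3%) and 3 lower (17.6%). The count of higher members was 3 without control replicate 1, control replicate 2 or LAMZ replicate 2 and 2 without LAMZ replicate 1, and that of lower members 2 in the first 3 of these fits and 1 in the last.

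Imprinted genes, which are read from only the maternal or the paternal copy, changed in both directions. Of those tested, 30.4% were higher and 21.7% lower, and the list median changed sign under rescaling to the same sum. Of 23 tested, 7 were higher and 5 lower, and without LAMZ replicate 1 these were 4 and 3. Beside Igf2, the higher genes included Mest, at 107 and 97.3 in the controls and 269 and 337 with LAMZ (1.55 ± 0.14, adjusted p = 0.000535), and the zinc finger gene Zim1, at 2.16 and 1.75 in the controls and 10.4 and 10.1 with LAMZ (1.93 ± 0.12, adjusted p = 0.000128). The lower genes were Meg3, Dlk1, Rian, Mirg and Rtl1, which all lie in 1 imprinted cluster of chromosome 12. Meg3, a noncoding RNA, went from 30.1 and 30.1 to 11.3 and 10.2 (−1.41 ± 0.11, adjusted p = 0.00035). In the interval from Dlk1 to Dio3 (chromosome 12, 109452823 to 110281097 on GRCm38), 29 genes were tested, 7 were lower and none higher at day 7, and 23 had a negative change. Of the 29, 15 are microRNA and 6 snoRNA genes that lie within or beside longer transcripts, so their values are not independent. In the interval of Igf2 and H19 on chromosome 7 (142575529 to 142666816), both tested genes were higher.

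Lineage genes gave a mixed picture beyond the osteoblast products. Among osteoblast lineage transcription factors, 8 of 20 tested were higher and 3 lower, and 1 was lower when LAMZ replicate 1 or LAMZ replicate 2 was left out. The lower genes included Twist1 and Twist2, whose proteins are known to hold Runx2 back. The median of this list changed sign under rescaling to the same sum, where 8 factors were higher and 7 lower. Without scaling, its shares of higher and lower genes lay above the 4.35% and 8.49% of all genes. Mef2c was at 4.29 and 5.25 in the controls and 16.8 and 13.7 with LAMZ (1.49 ± 0.15, adjusted p = 0.000971). Sp7, which acts after Runx2, went from 17.7 and 26.4 to 60.4 and 62.2 (1.46 ± 0.19, adjusted p = 0.00257), and Runx2 changed by 0.96 ± 0.14 (adjusted p = 0.00475). These 3 genes kept their calls with any 1 library left out. Among the 23 tested products, 9 were higher and Pdpn was lower, and no product was called lower when LAMZ replicate 1 or LAMZ replicate 2 was left out. The share of higher products was 39.1% against 4.35% of all genes. The median of the product list was 0.82 relative to all genes. It was 0.40 without control replicate 1 and 1.07 without control replicate 2, so its size rests on single libraries. Sost, the osteocyte inhibitor of bone formation, was at 3.59 and 8.66 in the controls and 4.2 and 2.51 with LAMZ and did not pass the test (−0.64 ± 0.34, adjusted p = 0.269). It was past the threshold, and lower, without control replicate 1. Alpl changed by 1.97 ± 0.24 (adjusted p = 0.00203), with control replicate 2 above control replicate 1.

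Cartilage genes rose, while the gene of their master regulator did not pass the test. The list was chosen with earlier results of these data known. It holds Acan, Matn1 and Susd5 of the 10 largest rises, so its share is descriptive. Of 20 tested, 14 were higher and none lower, or 70.0% against 4.35% of all genes, and 9 were called without LAMZ replicate 2. Sox9, which directs cartilage formation, was at 9.43 and 6.84 in the controls and 7.43 and 6.68 with LAMZ (−0.17 ± 0.16, adjusted p = 0.551). Its partner Sox6 rose from 2.45 and 3.3 to 7.32 and 8.37 (1.2 ± 0.17, adjusted p = 0.00428). Col9a1, a cartilage collagen, went from 5.18 and 4.27 to 23.6 and 25.5 (2.16 ± 0.12, adjusted p = 8.84e-05). Col10a1, the collagen of hypertrophic cartilage, was at 1.1 and 0.738 in the controls and 0.375 and 0.429 with LAMZ and did not pass the test (adjusted p = 0.478).

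Progenitor markers changed in both directions and adipocyte genes fell in part. Of 18 tested progenitor and pericyte markers, 6 were lower (33.3%) and 2 higher (11.1%), and the sign of the list median rests on the scaling. Cd34, a surface protein of stromal and blood progenitors, went from 7.01 and 6.5 to 0.689 and 0.639 (−2.22 ± 0.12, adjusted p = 5.83e-05), and Ly6a, the Sca-1 antigen, from 67.1 and 59.4 to 16.3 and 14.8 (−1.95 ± 0.21, adjusted p = 0.00107). Of 15 tested adipocyte genes, 5 were lower (33.3%) and none higher. Cebpa, a factor of fat cell formation that myeloid cells also use, fell from 14.8 and 9.31 to 2.94 and 2.77 (−1.73 ± 0.19, adjusted p = 0.00129). Lpl, which releases fatty acids from lipoproteins, fell from 17 and 17.6 to 4.06 and 3.83 (−1.89 ± 0.12, adjusted p = 0.000132). Cd36, a fatty acid and scavenger receptor that macrophages share, was at 5.84 and 7.08 in the controls and at 0 in both LAMZ libraries, at least 36.2-fold lower. Macrophage markers fell in the same libraries, and their part in these falls was not tested.

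**Figure D4:**
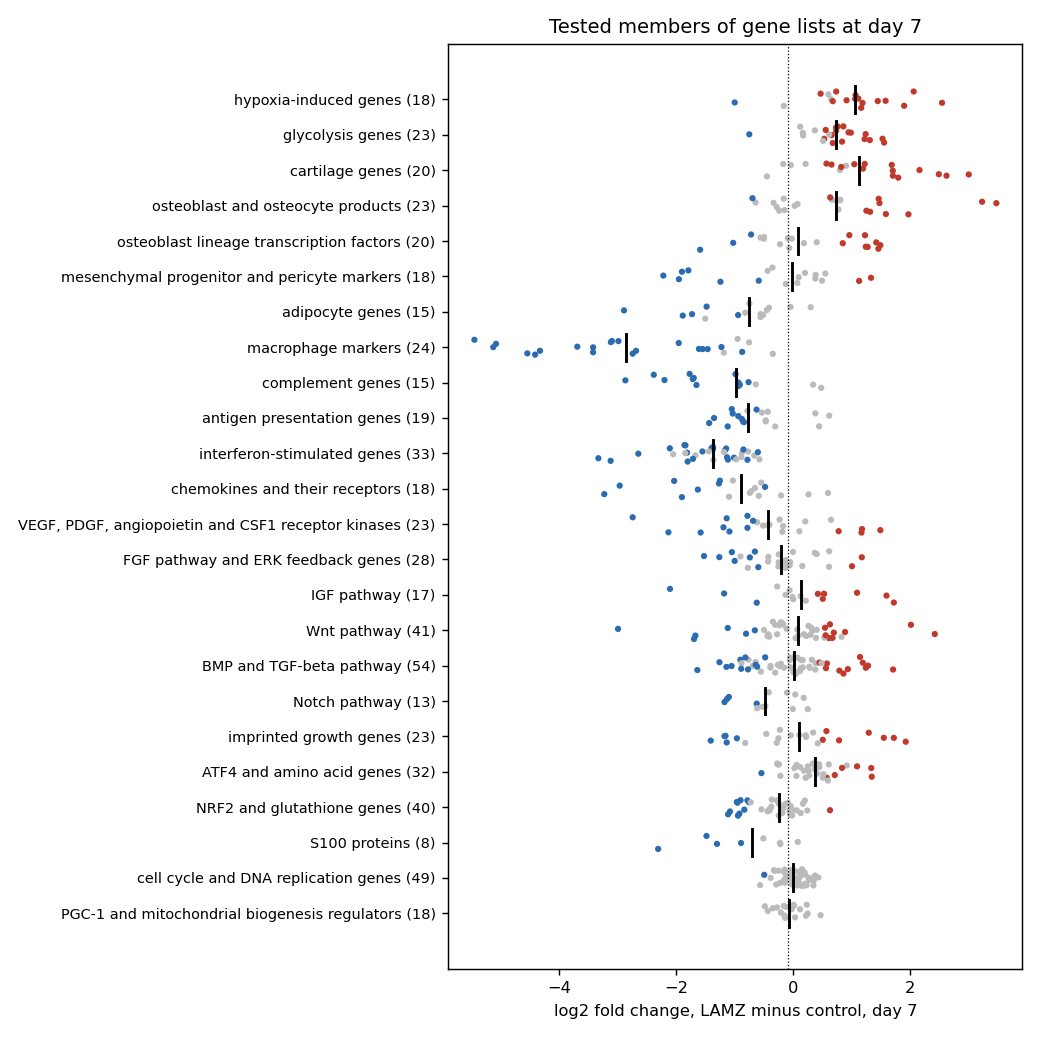
Log2 fold change at day 7 of each tested member of 24 gene lists, with red points for genes called higher, blue for genes called lower and grey for the rest; the number of tested members is in brackets. Black bars are list medians and the dotted line the median of all tested genes (−0.08). The hypoxia, glycolysis and cartilage lists lie to the right and the immune lists to the left, while cell cycle genes and PGC-1 regulators sit on the line.

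Stress and metabolic lists held calls in both directions. In the amino acid response 18.8% of tested genes were higher and 3.12% lower. Of 32 tested genes of the amino acid response, 6 were higher and 1 lower at day 7, and 2 were higher without LAMZ replicate 1. Vldlr, a lipoprotein receptor of this list, rose from 3.24 and 4.88 to 11.8 and 11.4 (1.34 ± 0.17, adjusted p = 0.00226). Of 24 tested chaperones of the endoplasmic reticulum, 1 was higher (P4hb) and 1 lower (Syvn1), or 8.33% against 12.8% of all genes, and no chaperone was called with any 1 day 7 library left out. NRF2 and glutathione genes were lower in 10 and higher in 1 of 40 tested. Hmox1, the heme-degrading enzyme that macrophages hold in quantity, went from 51 and 59.7 to 26.6 and 23.5 (−1.11 ± 0.14, adjusted p = 0.0021), and Gstm2, a glutathione transferase, from 61.8 and 54.9 to 28.2 and 30.6 (−0.96 ± 0.14, adjusted p = 0.0046). The count of lower members was 6 when LAMZ replicate 1 or LAMZ replicate 2 was left out. Among cholesterol synthesis genes 3 of 25 were called, a share of 12% that lies near the background of 12.8%.

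Several single genes of small families stood out. Ptgs2, the inducible cyclooxygenase, rose from 0.579 and 0.504 to 3.79 and 3.94 (1.66 ± 0.20, adjusted p = 0.00199), and Ptgis, which makes prostacyclin, from 34.8 and 42.1 to 74.4 and 77.2 (0.97 ± 0.13, adjusted p = 0.00272). The thromboxane receptor Tbxa2r fell from 6.22 and 5.72 to 2.08 and 2.1 (−1.17 ± 0.12, adjusted p = 0.00098). Bhlhe40, a clock repressor that is also induced by low oxygen, was at 8.67 and 12.6 in the controls and 35.5 and 31.9 with LAMZ (1.6 ± 0.18, adjusted p = 0.00149). The leak potassium channels Kcnk1 and Kcnk2 rose by 1.65 ± 0.17 and 1.24 ± 0.16, and 4 of 20 tested potassium channel genes were higher, or 20.0% against 4.35% of all genes, although the median of that list changed sign under rescaling to the same sum. Kcnab2, a channel subunit, was lower, at 2.66 and 3.11 in the controls and 0.925 and 0.619 with LAMZ (−1.14 ± 0.17, adjusted p = 0.00551). Myc rose from 14.7 and 17.3 to 42.3 and 46.3 (1.41 ± 0.12, adjusted p = 0.000446), while Jun fell from 18 and 13.6 to 6.91 and 6.68 (−1.09 ± 0.14, adjusted p = 0.00272). Fos, its partner, was at 4.74 and 3.93 in the controls and 3.59 and 3.18 with LAMZ and did not pass the test (adjusted p = 0.218), except, as a fall, under rescaling to the same sum.

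Matrix proteases changed in both directions. Of 33 tested proteases and inhibitors, 4 were higher (12.1%) and 8 lower (24.2%), with a median of 0.01 relative to all genes. With any 1 day 7 library left out, 1 to 4 were higher and 5 to 7 lower. Adamts5, an aggrecan-cleaving protease, fell from 36.5 and 32.8 to 7.8 and 7.83 (−2.02 ± 0.15, adjusted p = 0.000222). Adamts18 rose from 1.82 and 3.21 to 16.2 and 13.5 (2.2 ± 0.20, adjusted p = 0.000547). Of 8 tested S100 genes, 4 were lower (50.0%) and none higher. S100a4, known from fibroblasts and macrophages, went from 143 and 139 to 27.7 and 27.6 (−2.31 ± 0.24, adjusted p = 0.000979). Axl, a receptor for dying cells, fell from 30.9 and 25.4 to 10.6 and 10.8 (−1.31 ± 0.13, adjusted p = 0.000869). The repulsive guidance ligand Slit2 fell from 8.45 and 9.31 to 3.58 and 3.82 (−1.07 ± 0.11, adjusted p = 0.00102). Of 31 tested guidance genes, 7 were lower (22.6%) and 3 higher (9.68%). With any 1 day 7 library left out, 3 to 6 guidance genes were lower and 0 to 2 higher, and the sign of the list median changed under median centring.

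Adhesion and cell contact genes changed in both directions, and the balance rests on the scaling. Of tested ephrins and their receptors, 41.2% were lower and 11.8% higher. Of 17 tested ephrins and ephrin receptors, 7 were lower and 2 higher, and with any 1 day 7 library left out 2 to 4 were lower and 0 or 1 higher. Under median centring 4 were lower and 3 higher. Epha4, a receptor of cell sorting, went from 7.94 and 7.03 to 3.14 and 2.72 (−1.11 ± 0.14, adjusted p = 0.00213), and Epha1 from 4.05 and 3.09 to 0.478 and 0.782 (−1.49 ± 0.20, adjusted p = 0.00288). Both kept their call with any 1 library left out. Pcdh19, a protocadherin, fell from 6.84 and 5.99 to 1.5 and 1.58 (−1.54 ± 0.15, adjusted p = 0.000729), and 5 of 24 tested cadherins were lower (20.8%) and 1 higher (4.17%), against 8.49% and 4.35% of all genes. With any 1 day 7 library left out 1 to 3 cadherins were lower, and under median centring 1 was lower and 1 higher. Of 23 tested integrins and laminins, 5 were lower (21.7%) and 3 higher (13.0%), and 5 and 5 under median centring. With any 1 day 7 library left out, 2 to 5 were lower and 1 to 4 higher. Itgb2 had the largest fall of the called integrins and laminins. Macrophage markers fell in the same libraries, and their part in the falls of this list was not tested. Lama2, a laminin chain of muscle and stroma, fell from 3.99 and 4.59 to 1.13 and 1.53 (−1.19 ± 0.16, adjusted p = 0.00302). Itgb3, the integrin chain that binds osteopontin, rose from 7.55 and 7.44 to 14.4 and 14.6 (0.87 ± 0.11, adjusted p = 0.00291).

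Transporters and secreted regulators added further single genes. The balance of solute carriers rests on the scaling, with 20 higher and 14 lower under median centring and 8 and 43 under rescaling to the same sum. Of 170 tested solute carriers, 14 were higher and 20 lower, or 8.24% and 11.8% against 4.35% and 8.49% of all genes. These counts came to 6 and 6 without LAMZ replicate 1, 7 and 5 without LAMZ replicate 2, 10 and 12 without control replicate 1 and 13 and 11 without control replicate 2. Slc13a3, a relative of the citrate importer, moved against Slc13a5 and fell from 1.42 and 2.33 to 0.045 and 0.0736 (−1.42 ± 0.22, adjusted p = 0.00595). Slc11a1, a metal transporter of macrophage phagosomes, fell from 3.22 and 5.3 to 0.19 and 0.104 (−2.17 ± 0.22, adjusted p = 0.000916). Slc8a1, the sodium and calcium exchanger, fell from 3.71 and 3.15 to 1.04 and 1.18 (−1.07 ± 0.15, adjusted p = 0.00438). It is also on the list of calcium signalling genes, where 5 of 45 tested were lower and none higher. That came to 11.1% called, under the 12.8% of all genes. Tnfrsf11b, the decoy receptor osteoprotegerin that restrains osteoclast formation, rose from 11.7 and 9.53 to 28.2 and 25.4 (1.27 ± 0.17, adjusted p = 0.00352). Glul, glutamine synthetase and a known glucocorticoid target, fell from 17.3 and 21.2 to 7.62 and 9.3 (−1.1 ± 0.14, adjusted p = 0.00257), while all groups received dexamethasone. Of 17 tested glucocorticoid targets 4 were lower, and 1 or 2 with any 1 day 7 library left out.

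The lists named next had shares of called genes under the background of 12.8%. Some lists without counts here lay above it, among them cytokines of stromal and myeloid cells (42.9% called) and immediate early genes (29.6%). Of 49 tested cell cycle genes, 1 was called (the replication helicase gene Mcm5, lower), or 2.04% against 12.8% of all genes. Cyclin genes were close in the groups, with Ccnd1 at 57.3 and 44.9 in the controls and 55.3 and 60.9 with LAMZ. Of 18 tested regulators of mitochondrial biogenesis none was called by limma, and 3 had an unadjusted p under 0.05. Ppargc1a, the gene of PGC-1 alpha, at 0.0805 and 0.0876 in the controls and 0.213 and 0.116 with LAMZ, lay under the filter. Nuclear receptors had 1 call among 22 tested, heat shock genes 1 among 18 and proteasome genes 4 among 47, of which Psmb8, Psmb10 and Psme2 belong to the immunoproteasome. With any 1 day 7 library left out, the calls numbered 0 or 1 among cell cycle, heat shock and biogenesis genes, 0 to 5 among nuclear receptors and 1 or 2 among proteasome genes. Myod1 and Myog, the muscle factors measured in the study, were at or under 0.157 in every day 7 library.

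The change at day 7 was compared with that at day 14 by the test of the difference itself. At day 14, 6.96% of genes were higher and 16.0% lower, and the difference between the days passed the test in 78 genes (0.623%). With any 1 of the 8 libraries left out it passed in 0 to 21 genes, and with the replicate number as a block in 17 or 7. Hypoxia-induced genes had 14 higher members at day 7 and 8 at day 14, with medians of 1.15 and 0.66 relative to all genes. Bnip3 was the member whose change differed between the days: it was at 47.9 and 50.7 in the day 14 controls and 60.6 and 55.4 in day 14 LAMZ, a change of 0.23 ± 0.12 against 1.58 ± 0.12 at day 7 (difference 1.35 ± 0.17, adjusted p = 0.0287). Egln3 changed by 1.09 ± 0.21 at day 14, and its difference did not pass (adjusted p = 0.0828). The difference for Bnip3 was no longer called with any 1 of the 8 libraries left out or with a replicate block, and the same held for Bambi and Vegfd below. Bambi changed by 0.26 ± 0.15 at day 14 (difference 1.45 ± 0.21, adjusted p = 0.0369). Vegfd and Sfrp1 fell more at day 14, with changes of −3.47 ± 0.14 and −5.22 ± 0.19, and for both the difference passed the test (adjusted p = 0.0369 and 0.0268), that of Sfrp1 in 1 of the 8 fits with a library left out. The amino acid response had 30 higher members of 32 at day 14 and the chaperones 18 of 24. In 8 and 3 of their members the difference between the days itself passed. The interferon list had 12 lower members at day 14. None of its members differed between the days by the limma test, and 3 had an unadjusted p under 0.05.

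**Figure D5:**
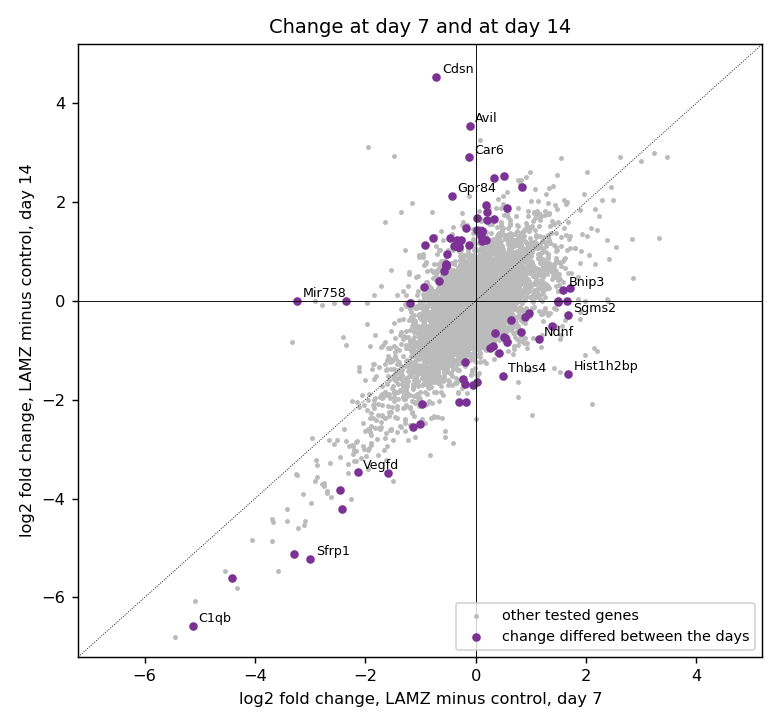
Log2 fold change of LAMZ against control at day 14 (y axis) against that at day 7 (x axis) for the 12514 tested genes. Purple points are the 78 genes whose change differed between the days, and the dotted line marks equal change. Bnip3, Sgms2, Ndnf and Hist1h2bp lie to the right of the line, and Cdsn, Avil and Car6 above it.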

How the data were processed

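RNA from mouse osteoblast progenitors was sequenced on an Ion Proton and mapped by the authors with CLC Genomics Workbench; the version of that program and the use of strand are not given in the sources used here. Per the submitters' processing notes the build was mm10. The deposited values are RPKM per gene, which the authors made from mapped reads, with 1 file per library. The value column of the day 7 LAMZ replicate 1 file is headed V1, where the other LAMZ files name the compound, and it was taken as that sample from the deposit's record of the file. In all, 4 date-like rows were dropped from each file, and 47465 of 51822 symbols (91.6%) matched 1 gene of GENCODE M21 (GRCm38). Promoters came from RefSeq (GRCm38.p6). Depth was recovered from the steps of low RPKM values and came to 3463860 to 5831705 mapped reads per library. Floors of 3 reads cover counting error only.

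Genes that reached an RPKM of 1 in 2 or more of the 8 libraries, 12514 in number, were tested on log2(RPKM + 1) with limma 3.58.1 (R 4.3.3), as 4 groups in 1 fit with a mean-variance trend, 4 residual degrees of freedom and Benjamini-Hochberg adjustment over all tested genes. No scaling was applied between libraries. The script was tested on simulated data. The replicate numbers come from the labels. Deviations of same-numbered libraries from their group means correlated at −0.0166 on day 7 and 0.0158 on day 14, so libraries were not paired.

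The gene lists, the comparison and the named genes were chosen with earlier results of these data known. The named genes are the 10 largest rises and 10 largest falls, the 4 called members of each list with the largest change (where fewer than 2 were called, also the 2 with the highest level), the genes the study measured by qRT-PCR, and the 5 largest differences between the days in each direction. Of the 237 genes this rule names, 106 are given with values and the rest are left out for space or are not reported here. Vegfa, Col10a1, Ldha, Ldhb, Egln1, Fgfr1, Fgfr3, Pgk1, Ifi27, P4ha1, P4ha2, Adm and Ndrg1, and called or uncalled list members named without values, fall outside this rule and were chosen after their values were seen, as were Pecam1 and Cd3e. Without strand, reads of genes that overlap another gene, 45 of the 119 named with values, cannot be told from those of the neighbour. Alternatives were other pseudocounts, filters, scalings, a replicate block, no trend, the 4 day 7 libraries alone and each library left out. Rescaling to the same sum over protein-coding genes was added after seeing the data.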

Additional observations from a re-analysis of the deposited data

Results flagged for a closer look

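For 13 of the genes named with values, the change at day 7 differed from that at day 14 by the limma test of the difference, and each is given here as its day 7 log2 change minus its day 14 log2 change. The count over all genes fell to 0 to 21 with any 1 of the 8 libraries left out, and the genes differed in how they held. Cdsn was called in 7 and Avil in 6 of those 8 fits, and both with either form of replicate block. Bambi, Bnip3 and Vegfd were called in none of the 8, Sgms2 in 2 and the others in 1. In the first set the change was larger in the positive direction at day 7, or less negative. Hist1h2bp, a histone gene with near-identical copies, differed by 3.15 ± 0.46 (adjusted p = 0.0369), from 1.68 ± 0.33 at day 7 to −1.47 ± 0.33 at day 14. Sfrp1 differed by 2.22 ± 0.27 (adjusted p = 0.0268), Vegfd by 1.33 ± 0.20 (adjusted p = 0.0369), Bambi by 1.45 ± 0.21 (adjusted p = 0.0369) and Bnip3 by 1.35 ± 0.17 (adjusted p = 0.0287). Thbs4, a thrombospondin of tendon, differed by 2.02 ± 0.19 (adjusted p = 0.0198), with 0.50 ± 0.14 at day 7 and −1.52 ± 0.14 at day 14. Sgms2, a sphingomyelin synthase, differed by 1.96 ± 0.32 (adjusted p = 0.0476) and Ndnf, a secreted neuronal factor, by 1.92 ± 0.21 (adjusted p = 0.0243).

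In the other genes the change was lower at day 7, and in all but Mir758 the larger change was a rise at day 14. Changes at day 7 and day 14 were −0.71 and 4.53 for Cdsn and −0.11 and 3.54 for Avil. They were −0.13 and 2.91 for Car6 and −0.42 and 2.13 for Gpr84. Cdsn, corneodesmosin of the skin, differed by −5.24 ± 0.36 (adjusted p = 0.00587) and Avil, an actin regulator, by −3.65 ± 0.27 (adjusted p = 0.00587). Car6, a secreted carbonic anhydrase, differed by −3.04 ± 0.36 (adjusted p = 0.0258), with an RPKM of 0 and 0.318 in the day 7 controls and 0 and 0.106 in day 7 LAMZ. Gpr84, a fatty acid receptor of myeloid cells, differed by −2.55 ± 0.29 (adjusted p = 0.0257). Mir758, a microRNA gene of the chromosome 12 cluster, differed by −3.23 ± 0.30 (adjusted p = 0.0198) and rested on 3 and 2 reads in the day 7 controls and none in the LAMZ libraries.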

How the results depend on the processing

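Over the 12514 tested genes, the 1607 called at day 7 became 951 (346 higher, 605 lower) with no filter on low values and 624 (219 and 405) with the 4 day 7 libraries alone. Rescaling to the same RPKM sum moved the median of all genes to −0.313 and gave 3592 (312 higher, 3280 lower), and median centring raised the higher genes to 857. With 1 library left out the calls numbered 527 to 1383, of which 173 to 491 were higher and 354 to 892 lower. The 78 genes that differed between the days became 34 at a pseudocount of 0.1, 166 at a pseudocount of 5, 0 with no filter, 133 at a filter of RPKM 5, 121 under the same sum over protein-coding genes, 30 with no trend and 0 to 21 with 1 library left out; the cause was not tested. With a replicate block shared by the 4 groups, 1376 genes were called at day 7 and 17 differed between the days, and with a replicate block within each day 984 (344 higher, 640 lower) and 7. That block ended the calls of Ldha and Ldhb and of no other gene named with values. No gene named with values reversed under any setting. The 21 interferon-stimulated genes called lower became 13 at a pseudocount of 5, 11 under quantile normalization and 4 with the day 7 libraries alone. With 2 libraries per group and shallow sequencing, genes of a few reads, such as Hist1h4m and Gm24623, are at the limit of this depth.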
